A study of Mus musculus with 8 samples.

Results

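The promoters of *Fv1*, *Miip*, *Acer2*, *Apoe*, *Galnt9* and *Hsf5* were chosen by their oxBS levels, among genes that are not imprinted. These levels, pooled over replicates, were higher after *Tet3* knockdown at several CpGs of each promoter. NPCs (neural progenitor cells) had been differentiated from A2lox.cre mouse ES cells, a line in which a doxycycline-inducible cassette is placed at a fixed site by Cre recombination. The shScr group carried a non-targeting shRNA and the shTet3 group an shRNA against *Tet3*, and all cells of both groups received doxycycline at 2 µg/ml for 5 days. Each shRNA had 2 replicates. The DNA of every replicate was divided into a BS library, which reads 5mC and 5hmC alike as methylated, and an oxBS library, which reads 5mC alone, giving 8 libraries. The knockdown lines were expanded from selected ES cell clones, and how many clones stand behind the libraries is not given in the labels. Expression was not measured in these files, so neither the level of *Tet3* nor the identity of the cells could be checked here.

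All CpGs listed from 5 kb upstream of the first transcription start to the end of each gene were taken, with positions in mouse build mm9. The 6 genes held 235 of the 757812 listed CpGs, of which 186 lay in promoters (−1 kb to +0.5 kb of a start), 44 in gene bodies and 5 further upstream. A CpG was tested when it had a coverage of at least 10 calls in the 4 libraries compared. Calls required a *q* value under 0.01 together with a pooled difference of more than 10 percentage points. By this rule 19 promoter CpGs of the 6 genes were called higher in shTet3 in oxBS, 10.6% of the 180 tested, where 0.0814% of all CpGs and 0.0542% of promoter CpGs were called higher. Both shTet3 libraries were above both shScr libraries in oxBS at 31 of the 180, where 2.04% of all CpGs had this order. This contrast chose the genes, so these values are a description and nothing was tested with them. The BS libraries played no part in the choice. They are a separate oxidation-free readout of the same DNA and not of other cultures, and each gain was therefore tested there. BS reads the sum of 5mC and 5hmC, and a rise of 5mC matched by a fall of 5hmC would leave that sum unchanged. A BS level without change thus does not refute a rise of 5mC, and whether both marks moved in this way was not tested.

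TET3 belongs to the dioxygenases that oxidise 5mC to 5hmC and to further products, a route by which methylation can be removed from DNA. The 6 genes have unrelated functions. *Fv1* derives from the gag gene of an ancient endogenous retrovirus and restricts infection by murine leukaemia virus. *Miip* encodes an inhibitor of cell migration and invasion. *Acer2* encodes a ceramidase of the Golgi, which splits ceramide into sphingosine and a fatty acid. *Apoe* encodes the main apolipoprotein of the brain, where it carries cholesterol and is made chiefly by astrocytes. *Galnt9* encodes one of the transferases that start mucin-type O-glycosylation, and *Hsf5* a germline member of the heat shock factor family.

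The 19 CpGs lay on 8 MspI fragments, out of 35 fragments that held the 186 promoter CpGs. The enzyme cuts at CCGG, and neighbouring CpGs can be read on the same molecules, so the CpGs of a locus are not independent. The stretches that carry 15 of these CpGs are given from the mm9 genome, plus strand, 5′ to 3′, with each CpG called higher in capitals.
Fv1 and Miip, chr4:147242525-147242554: tctacCGgtctagCGggaCGaaggcaCGcc
Acer2, chr4:86576813-86576892: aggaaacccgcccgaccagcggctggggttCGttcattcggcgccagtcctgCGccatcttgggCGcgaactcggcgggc
Apoe intron, chr7:20284121-20284180: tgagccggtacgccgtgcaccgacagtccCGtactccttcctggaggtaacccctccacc
Apoe UTR exon, chr7:20284356-20284385: ttaccagctccttcCGaaacaagtccttag
Galnt9 upstream, chr5:110973141-110973200: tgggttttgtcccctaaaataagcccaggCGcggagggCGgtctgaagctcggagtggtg
Galnt9 coding exon, chr5:110973798-110973857: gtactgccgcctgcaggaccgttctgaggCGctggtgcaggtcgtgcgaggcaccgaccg
Hsf5 coding exon, chr11:87430851-87430940: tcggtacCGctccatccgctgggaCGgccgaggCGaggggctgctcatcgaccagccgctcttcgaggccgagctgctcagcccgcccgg
The first stretch shows 4 of the 7 CpGs of *Fv1* and *Miip*, the *Apoe* CpG at 20283769 is in none of the stretches, and the Acer2 stretch shows that CpGs called higher stood among others that were not.

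*Fv1* (ENSMUSG00000070583.1, chr4:147243088-147244467, plus strand) and *Miip* (ENSMUSG00000029022.11, chr4:147234887-147242925, minus strand) are arranged head to head, with 162 bases between their first starts. All 26 promoter CpGs of either gene were shared by both, so the pair counts as a single locus. Its 7 CpGs called higher lay in a 5′ UTR exon of *Miip*, 480 to 558 bases upstream of the *Fv1* start. *Acer2* (chr4:86520300-86580726, plus strand) is annotated as 2 gene records, ENSMUSG00000038007.8 and ENSMUSG00000091609.1. Its 3 CpGs lay in an intron of the gene, 248 to 282 bases downstream of the later start at 86576595, and not at the first start. *Apoe* (ENSMUSG00000002985.9, chr7:20281458-20284515, minus strand) has 9 annotated starts. One of its 3 CpGs, at 20284150, was intronic, whereas those at 20283769 and 20284370 lay in UTR exons. *Galnt9* (ENSMUSG00000033316.8, chr5:110973364-111050401, plus strand) had a pair of CpGs upstream of its start, at 110973170 and 110973179, and another in a coding exon at 110973827. The 3 CpGs of *Hsf5* (ENSMUSG00000070345.3, chr11:87430666-87473044, plus strand) were in a coding exon, at 87430858, 87430875 and 87430884.

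The promoters did not share one sequence class. The observed over expected CpG ratio of the 1.5 kb windows ranged from 0.209 at the later start of *Galnt9* to 0.775 at its first start, against a median of 0.485 over 45986 promoter windows. The window at the later start of *Galnt9* held no listed CpG. Among the other windows the lowest ratio was 0.328, at an *Apoe* start. *Hsf5* had a ratio of 0.741, at the 81st percentile, while the 9 windows of *Apoe* stood between the 37.4th and 44.4th percentiles. The later start of *Acer2*, where its CpGs called higher were found, was at the 42.1st percentile, and its first start at the 71st.

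At *Fv1* and *Miip*, the mean oxBS level over the 7 CpGs was 4.60% and 1.27% in shScr replicates 1 and 2 and 20.4% and 18.2% in the shTet3 replicates. The BS libraries of the same DNA gave 7.92% and 10.8% in shScr, against 9.16% and 6.62% in shTet3. The shTet3 replicates were thus both high in oxBS, whereas in BS the groups overlapped. The BS mean was 9.36% ± 2.03 (SD, n = 2) for shScr, against 7.89% ± 1.80 (SD, n = 2) for shTet3, a difference of −1.46 percentage points with an exact permutation p of 0.67. With 2 libraries against 2, no p below 0.33 is possible in this test. The CpG with the widest oxBS gain, at 147242538, had 5.41% and 1.92% in shScr oxBS, against 28.8% and 30.2% in shTet3 oxBS. The same CpG had 2.94% and 14.1% in shScr, against 10.3% and 6.0% in shTet3 in BS. All 7 CpGs were below 0 in the BS difference, from −4.09 to −0.621 percentage points, and none had an interval that excluded 0.

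The CpGs of *Acer2* had intermediate levels. Their mean in oxBS was 36.2% and 48.5% in shScr, against 59.8% and 65.2% in shTet3. In BS the values were 47.1% and 50.5% in shScr, against 46.6% and 56.4% in shTet3, which overlapped. The BS means were 48.8% ± 2.39 (SD, n = 2) and 51.5% ± 6.89 (SD, n = 2), a difference of 2.69 percentage points with an exact permutation p of 1. Among the CpGs of *Acer2*, that at 86576877 had both shTet3 libraries above both shScr libraries in BS as well, with 48.3% and 33.3% in shScr against 55.6% and 57.1%. Its BS difference was 10.5 percentage points (95% interval −7.62 to 27.7, *q* = 0.55). The CpG at 86576843 went the other way in BS, at −9.27 percentage points (−21.4 to 3.50). For this locus the BS difference turned to −3.73 and −3.16 percentage points with coverage minimums of 5 and 20, and it was −2.18 without shTet3 replicate 2 and 7.57 without shTet3 replicate 1.

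At *Apoe*, the CpG at 20284370 had 5.05% and 5.83% in shScr, against 16.3% and 22.9% in shTet3 in oxBS. In BS, shScr was at 21% and 12% and shTet3 at 13.0% and 18.2%, so that the values of both groups interleaved. The CpG at 20283769 had 4.0% and 2.63% in shScr oxBS, against 9.68% and 18.5% in shTet3 oxBS. Its BS libraries had 5.19% and 8.93% in shScr, against 3.95% and 4.17% in shTet3, both shTet3 values being lower. Over this pair of CpGs the BS mean was 11.8% ± 1.86 (SD, n = 2) for shScr, against 9.81% ± 1.92 (SD, n = 2) for shTet3. The difference of −1.97 percentage points had an exact permutation p of 0.67, and with a coverage minimum of 5, which adds the intronic CpG, it turned to 1.49. The intronic CpG at 20284150 was not tested in BS because its coverage was under the minimum. Its oxBS levels were 0% and 13.3% in shScr, against 38.5% and 35.3% in shTet3, with a limit of 12% that a count of 0 methylated calls allows in the first of these. Its BS levels of 11.1% and 16.7% in shScr, against 19.6% and 25% in shTet3, were ordered in the same way as in oxBS, with a pooled difference of 8.22 percentage points and an interval from −9.11 to 22.2.

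For *Galnt9*, the CpG in the coding exon had 1.54% and 3.80% in shScr, against 12.1% and 16.1% in shTet3 in oxBS. In BS the levels were 14.1% and 15.9% in shScr, against 9.09% and 14.9% in shTet3. The shScr libraries were thus low in oxBS alone, and the BS difference of −2.97 percentage points had an exact permutation p of 0.67. With a coverage minimum of 5 the difference turned to 0.357. The upstream pair of CpGs was read at 0% in both shScr oxBS libraries, where the limits that a count of 0 allows were 6.67% and 21.4%. The shTet3 oxBS libraries had 23.3% and 7.69% at 110973170 and 16.7% and 20% at 110973179. Both were under the coverage minimum in BS, where the pooled differences were −0.644 (−13.6 to 17.7) and 1.4 (−12.8 to 20.8) percentage points.

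*Hsf5* was the most methylated of the promoters and the least uniform between replicates. The mean oxBS level over its 3 CpGs was 43.1% in shScr replicate 1, 86.5% in shScr replicate 2, and 77.4% and 84.2% in shTet3. The groups overlapped in oxBS at each of the 3 CpGs. Between replicates numbered 2 the difference was −2.32 percentage points, against 34.2 between replicates numbered 1. In BS, the shScr replicates had 60% and 80.1% and the shTet3 replicates 64.1% and 78.8%, with a difference of 1.38 percentage points and an exact permutation p of 1. Without shScr replicate 2 this difference was 11.45, and without shScr replicate 1 it was −8.68 percentage points. Within *Hsf5*, the CpG at 87430858 had a BS interval above 0, with a difference of 15 percentage points (4.35 to 25.9, *q* = 0.030). Its neighbour 17 bases away, at 87430875, had a BS interval below 0, at −16.3 percentage points (−28.5 to −3.06, *q* = 0.068). Neither passed the *q* threshold.

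**Figure D1:**
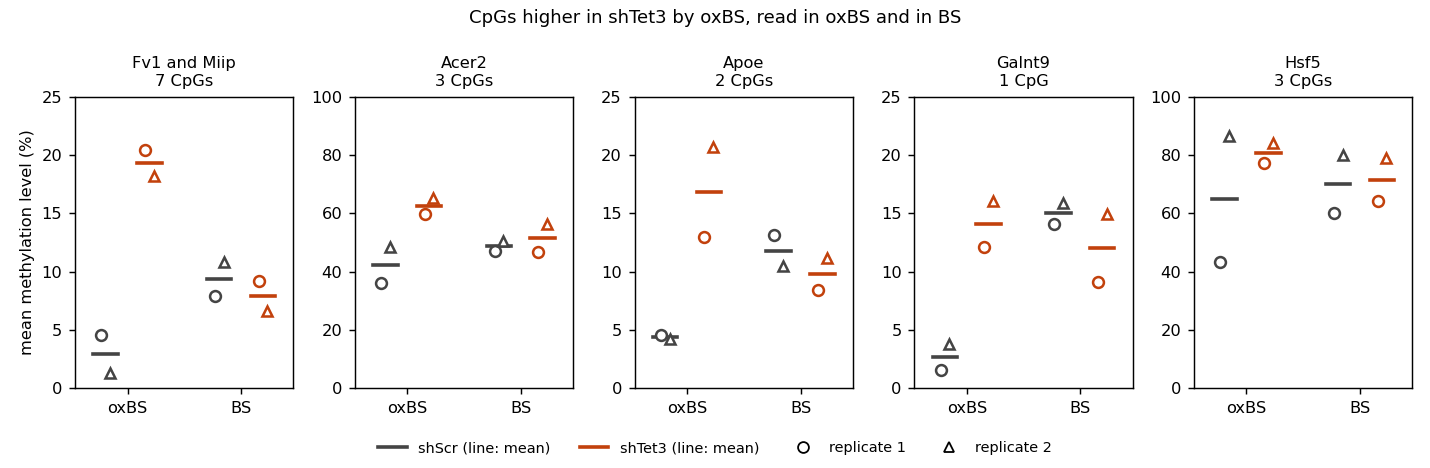
Mean methylation level (%) over the promoter CpGs called higher in shTet3 by oxBS and covered in all 8 libraries, for each locus, in oxBS (left pair) and BS (right pair). Circles are replicate 1, triangles replicate 2 and lines the mean of both, shScr in grey and shTet3 in orange, with axes to 25% or 100%. In BS the shScr and shTet3 replicates overlapped at all 5 loci, while in oxBS they overlapped at *Hsf5* only.

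Of the 19 CpGs, 16 could be tested in BS. No CpG among these was called higher and none lower by the logistic likelihood ratio test, where 0.0621% of all CpGs were called higher in BS and 13.8% lower. At an unadjusted p below 0.05, 1 of the 16 was higher and 1 lower, and the share of all CpGs at that p was not counted. Fisher's exact test on pooled counts called 0 of the 16 in either direction, where it called 297 of 659124 CpGs higher and 83691 lower. The pooled BS level was higher in shTet3 at 3 of the 16, against 14.3% of all CpGs and 16.3% of promoter CpGs tested in BS. Both shTet3 libraries were above both shScr libraries at 2 of them and below at 2, where promoter CpGs had these orders at 2.05% and 6.87%. The median BS difference of the 16 was −2.07 percentage points, and their median oxBS difference, which the rule fixed, was 17.6. The upper bound of the 95% interval of the BS difference (Newcombe, from counts pooled over replicates) was below 10 percentage points at 12 of the 16 CpGs, among them all 7 of *Fv1* and *Miip*. The oxBS differences chose the CpGs, so the BS intervals were not compared with them. All intervals cover counting error only, since PCR copies without molecular identifiers are not independent molecules. The coverage of the 19 CpGs ranged from 6 to 150 calls in a library, with a median of 59.

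**Figure D2:**
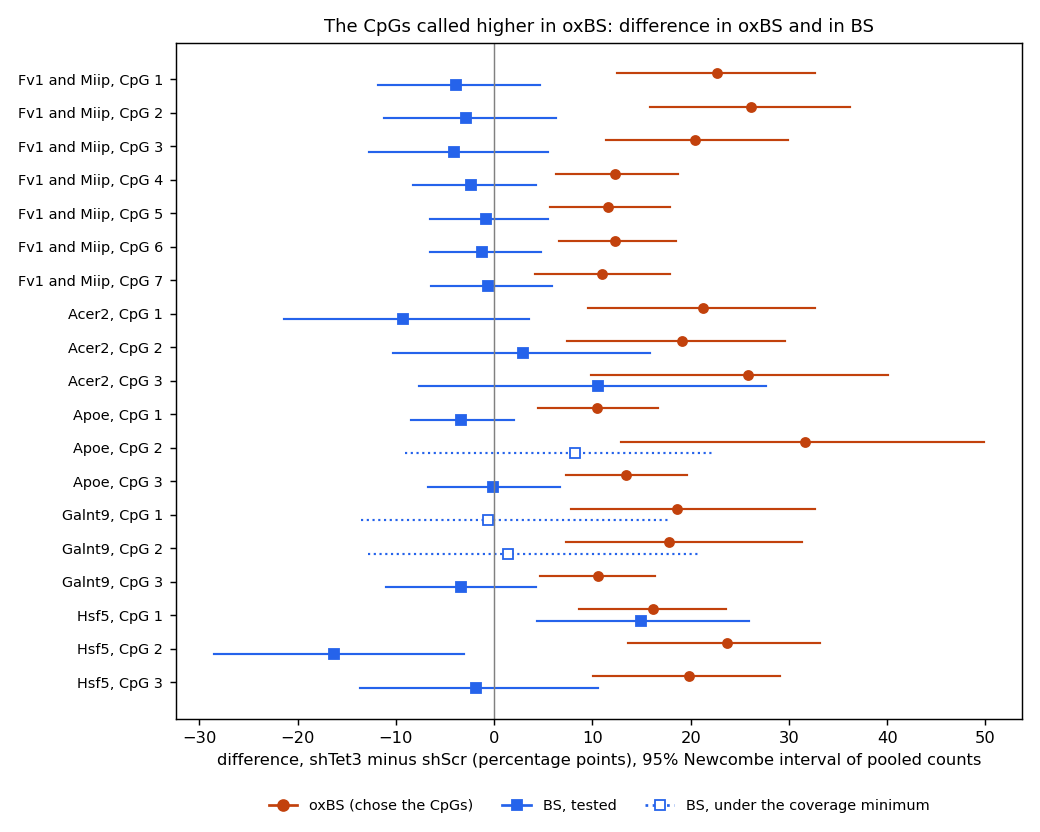
Difference in level (shTet3 minus shScr, percentage points) with its 95% Newcombe interval at each of the 19 CpGs, ordered by position within a locus. Orange circles are oxBS, which chose the CpGs, and blue squares BS, with open squares and dotted lines for the 3 CpGs under the coverage minimum in BS. The choice of the CpGs set all oxBS differences above 10, and at 12 of the 16 CpGs tested the BS interval ended below 10.

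In simulated BS data of 659124 CpGs in which 100 were raised by 20 points and 100 by 30 points, the test on single CpGs called 11 and 41 of them. No other CpG differed in the simulation, whereas 13.8% of all CpGs were called lower in the BS libraries themselves. The adjustment over all CpGs was therefore stricter in the simulation, and its counts do not give the reach of the test in the real data. In the same BS libraries the 30 CpGs called higher in oxBS in the promoters of *Peg10*, *Zrsr1* and *Mcts2*, which are imprinted genes, were all higher in shTet3 by pooled level and 15 of them were called, with a median of 10.5 percentage points. Both shTet3 libraries were above both shScr libraries at 7 of these 30, and over the promoter of *Peg10* shScr replicate 1 had 47.2% and replicate 2 8.94%, against 27.4% and 30.9% in shTet3. Outside the 6 genes and these 3, 113 such promoter CpGs were tested in BS, of which 58 were higher, 2 called higher and 5 called lower, with a median of 0.298. Of all 539 CpGs called higher in oxBS, 497 were tested in BS, with 278 higher, 36 called higher, 17 called lower and a median of 0.943 percentage points. No test was made of the difference between these sets and the 6 genes.

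All promoter CpGs of the 6 genes were then read in BS by the same rule. Of 172 tested, these 16 included, 0 were called higher and 2 lower, where 0.0395% of promoter CpGs were called higher and 1.86% lower. At an unadjusted p below 0.05, 13 were higher and 16 lower, and Fisher's exact test also called 0 higher. The share of all promoter CpGs at that p was not counted, so whether 13 and 16 of 172 are unusual was not tested. Both shTet3 libraries were above both shScr libraries at 14 CpGs and below at 19, where the shares were 2.05% and 6.87% over promoter CpGs and 1.96% and 26.1% over all CpGs. The calls of 0 depended on single libraries. With any 1 library left out, which leaves 1 library in a group, some promoter CpGs of the 6 genes were called higher. The number called over all CpGs moved with the library left out as well. Whether the 6 genes moved more than other promoters was not tested. None of the calls made in the 6 promoters in this way fell on any of the 19 CpGs. Those at 147242659 and 147242708, in the *Fv1* and *Miip* promoter, were made both without shScr replicate 1 and without shTet3 replicate 2.

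The 2 CpGs called lower in BS belonged to *Acer2* and *Hsf5*. At 86519343, upstream of the first start of *Acer2*, BS levels were 48.4% and 83.1% in shScr, against 31.0% and 27.4% in shTet3, a fall of 39.5 percentage points (*q* = 1.2e-11). The same CpG was at 51.8% and 81.2% in shScr, against 35.8% and 52.6% in shTet3 in oxBS, where it was called lower as well. The CpG at 87430593, upstream of the *Hsf5* start, had 79.4% and 90% in shScr, against 55.3% and 52.4% in shTet3 in BS (*q* = 6.4e-04). Its oxBS levels of 46.7% and 83.9% in shScr, against 72.9% and 72.2% in shTet3, overlapped. In oxBS 4 of 180 promoter CpGs were called lower, where 2% of promoter CpGs and 13.9% of all CpGs were. Of these 4, the one at 147243100, near the *Fv1* coding start, had 22.2% and 34.5% in shScr, against 16.7% and 12.5% in shTet3. Its BS levels were 20.8% and 30.4% against 34.0% and 18.2% and did not separate the groups. The calls of lower level also moved with the library left out, in these promoters and over all CpGs.

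**Figure D3:**
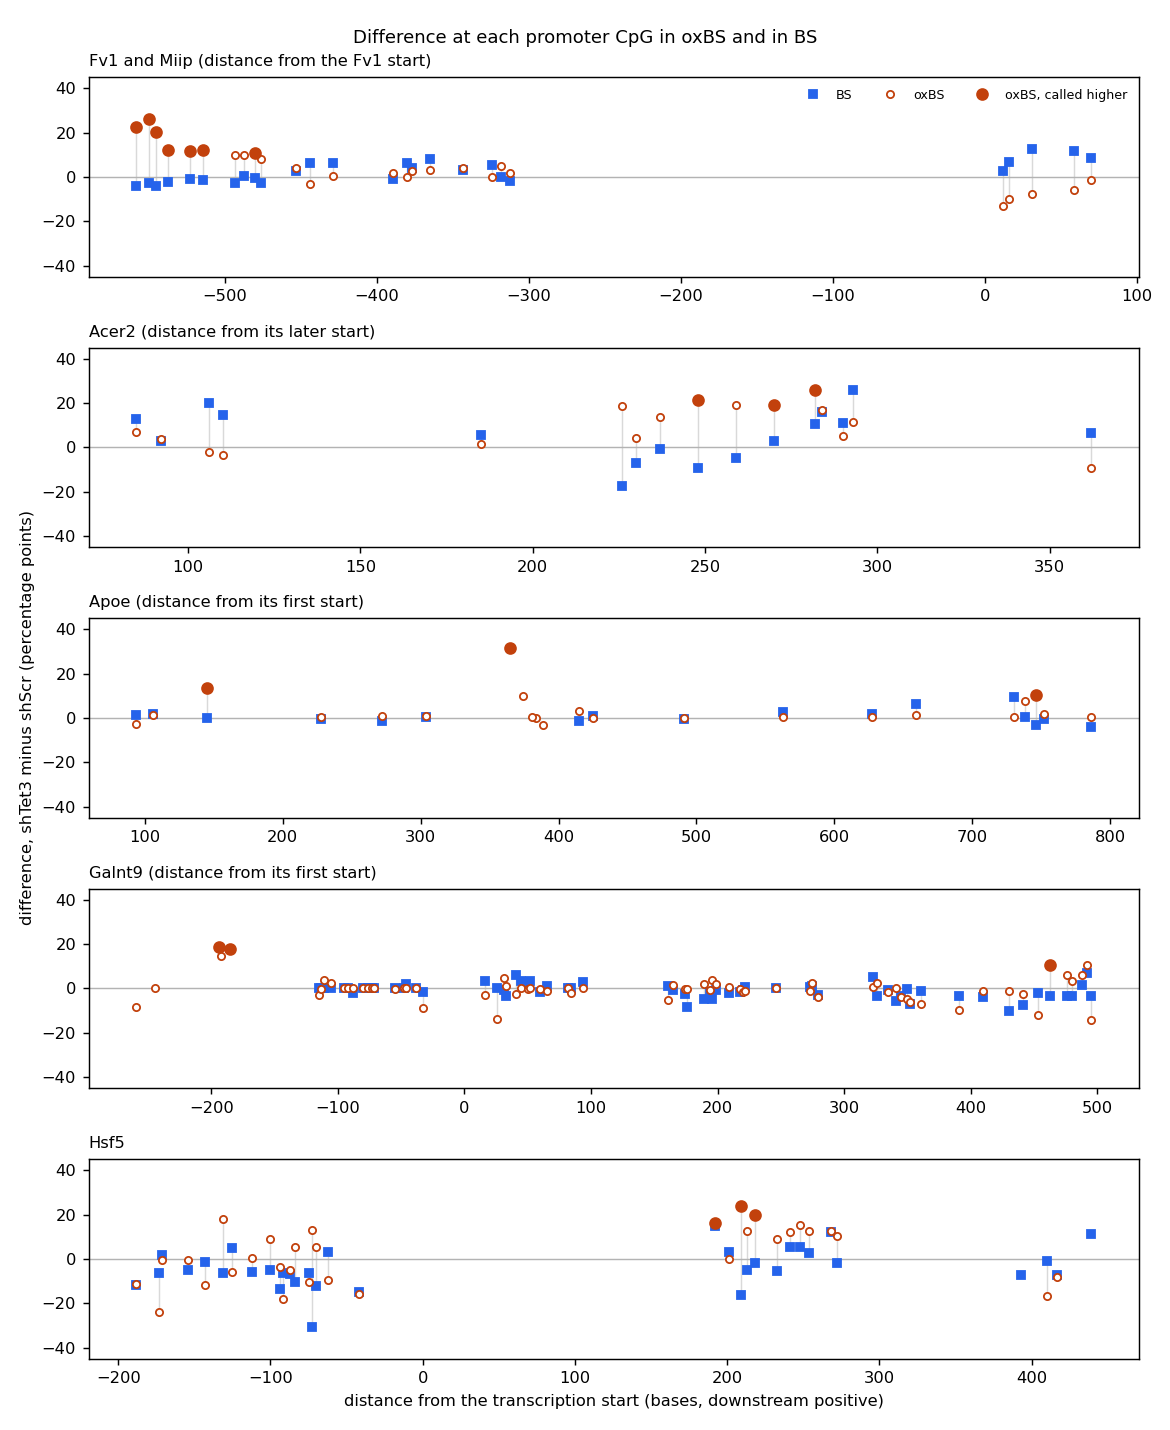
Difference in level (shTet3 minus shScr, percentage points) at each tested promoter CpG against its distance in bases from a transcription start, with panels for *Fv1* and *Miip*, the later start of *Acer2*, *Apoe*, *Galnt9* and *Hsf5*. Blue squares are BS, open circles oxBS, filled circles the 19 CpGs called higher in oxBS, and grey lines join both values of a CpG. The 7 filled circles of *Fv1* and *Miip* stand together 480 to 558 bases upstream, and the BS squares under them are between −4.09 and −0.621.

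Taken by MspI fragment, the CpGs called higher at *Fv1* and *Miip* kept to 1 of 4 fragments. That fragment (147242530 to 147242634, 10 CpGs covered) had oxBS means of 3.73% and 1.24% in shScr, against 18.8% and 14.6% in shTet3. The adjoining fragment (147242635 to 147242769, 9 CpGs) had 18.2% and 5.01% in shScr, against 19.3% and 4.21% in shTet3. There the replicates differed and the shRNAs did not separate. Its BS values, 17.3% and 5.37% in shScr, against 26.2% and 5.05% in shTet3, were ordered by replicate number in the same manner. The fragment at the *Fv1* start (147242954 to 147243157, 4 CpGs) was lower in both shTet3 replicates in oxBS, with 24.1% and 32.6% in shScr, against 23.2% and 13.6% in shTet3. In BS that fragment had 23.0% and 25.3% in shScr, against 44.3% and 17% in shTet3, and the groups overlapped.

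**Figure D4:**
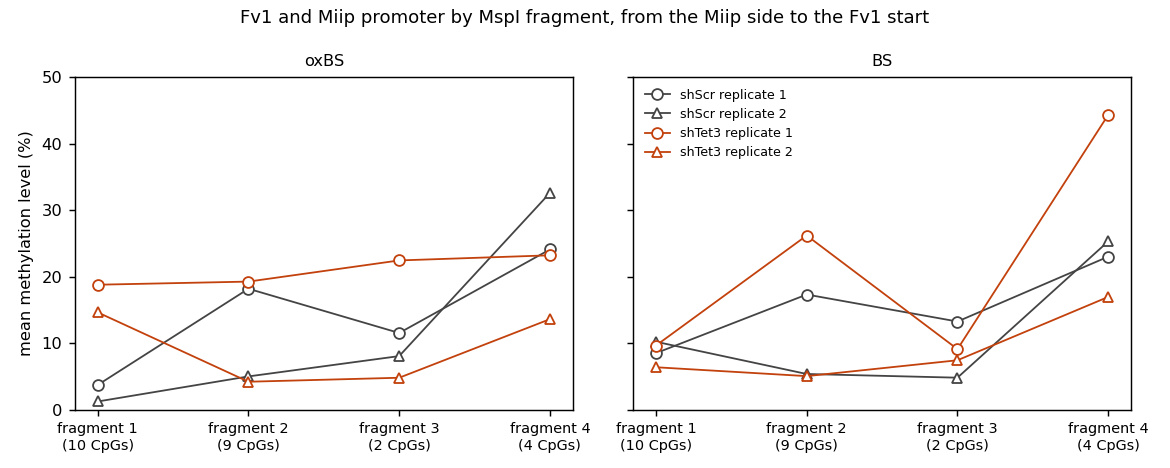
Mean methylation level (%) of 4 MspI fragments of the shared *Fv1* and *Miip* promoter with at least 2 CpGs covered in all libraries, in oxBS (left) and BS (right). Points joined by lines are single replicates, circles replicate 1 and triangles replicate 2, shScr in grey and shTet3 in orange. On the first fragment both shTet3 replicates are above both shScr replicates in oxBS only, and on the second fragment both replicates numbered 1 are above both replicates numbered 2 in either library kind.

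At the later start of *Acer2*, the fragment with the CpGs called higher (86576780 to 86576956, 11 CpGs) had BS means of 36.3% and 40.7% in shScr, against 34.8% and 52.3% in shTet3. Its neighbour (86576687 to 86576779, 3 CpGs) had no CpG called higher in oxBS, with 30.7% and 41.4% in shScr, against 32.5% and 42.1% in shTet3. In BS that neighbour had 29.5% and 32.1% in shScr, against 41.4% and 45% in shTet3, so that its shTet3 replicates were above its shScr replicates in BS alone. In *Apoe*, a fragment of 2 CpGs (20283785 to 20283887) lay next to the CpG at 20283769, and both shTet3 replicates were above both shScr replicates there in either library kind. Its BS means were 0.676% and 0% in shScr, against 8.09% and 8.69% in shTet3, and its oxBS means 2.12% and 1.67% against 2.65% and 3.21%. Of this pair, the CpG at 20283785 had a BS difference of 9.49 percentage points (*q* = 4.3e-05), just short of the limit of 10. Without shTet3 replicate 1 its BS difference was 12.3 percentage points. Its oxBS levels of 1.47% and 0% in shScr, against 1.12% and 1.25% in shTet3, overlapped. At the first start of *Galnt9*, 2 fragments with 15 and 13 covered CpGs, from −115 to 84 bases, had means between 0% and 8.96% in the 8 libraries.

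Since BS reads 5mC and 5hmC and oxBS only 5mC, BS minus oxBS of the same DNA is not expected below 0 apart from sampling error. Over the 7 CpGs of *Fv1* and *Miip* it was 3.32 and 9.52 percentage points in shScr and −11.3 and −11.5 in shTet3. It was 10.9 and 2.02 against −13.1 and −8.84 at *Acer2*, and 8.57 and 6.23 against −4.52 and −9.53 at *Apoe*. The one CpG of *Galnt9* gave 12.6 and 12.1 in shScr and −3.03 and −1.15 in shTet3. At *Hsf5* the values were 16.9 and −6.35 in shScr, against −13.3 and −5.31 in shTet3. In shTet3 the subtraction was thus negative in both replicates at every locus, and in shScr it was positive in both at all loci but *Hsf5*. The oxBS values that chose the CpGs enter this subtraction and favour this order of signs, so no test was made. Over the promoter CpGs outside the 19 the subtraction lay between −4.91 and 6.62 percentage points in all replicates and loci.

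A test that takes the libraries as replicates was fitted in BS over 12609 promoters of protein-coding genes with limma. No promoter passed an adjusted p of 0.05, 0% in either direction, with 194 promoters higher and 638 lower at an unadjusted p below 0.05. In simulated data with 12609 promoters, this fit called 60 of 100 promoters raised by 15 points and 89 of 100 raised by 30 points. The simulated noise was drawn for each CpG apart, without a shift between replicates shared by a whole promoter. Real promoters had such shifts, as *Hsf5* with 61.4% and 81.6% in the shScr BS libraries. The simulated counts therefore do not give the reach of the fit in these libraries. The promoters of *Fv1* and *Miip* had BS means of 15.2% and 11.3% in shScr, against 22.2% and 8.63% in shTet3, a difference of 2.19 percentage points (limma adjusted p = 0.98). The differences were 1.84 at *Acer2* (limma adjusted p = 0.91), 0.919 at *Apoe* (0.82), −0.802 at *Galnt9* (0.85) and −2.33 at *Hsf5* (0.95). The median over the 5 loci was 0.919 and over all promoters −0.130 percentage points. Ranked by this difference among the 12609 promoters, *Fv1* and *Miip* stood at percentile 99.2, *Acer2* at 99 and *Apoe* at 97.9. *Galnt9* stood at 30.4 and *Hsf5* at 20.4, and these ranks were not tested. The shTet3 libraries overlapped the shScr libraries at each of the 6 promoters.

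The relatives of these genes gave no call in that fit either. None of 5 tested ceramide and sphingosine enzymes, 4 apolipoproteins and receptors, 15 genes of mucin-type O-glycosylation, 7 heat shock factors and targets, 3 genes of retroviral restriction and silencing, or 3 genes near *Fv1* and *Miip* passed. Their median differences ranged from −0.0965 in the ceramide and sphingosine enzymes to −0.617 percentage points near *Fv1* and *Miip*. The smallest adjusted p in any of these lists was 0.73.

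Outside the promoters, 40 CpGs of the gene bodies and upstream flanks could be tested in BS. None was called higher and 5 were called lower by the likelihood ratio test, where 13.8% of all CpGs were called lower in BS. At an unadjusted p below 0.05, 0 were higher and 19 body and 2 upstream CpGs were lower, without a counted share of all CpGs at that p to set beside them. *Galnt9* held 3 of the calls, all intronic, of which the one at 111027395 had 90.2% and 86.2% in shScr, against 65.8% and 83.5% in shTet3. Its oxBS levels of 61.8% and 55.7% in shScr, against 65.4% and 71.6% in shTet3, went the other way without a call. The CpG at 20288398, upstream of *Apoe*, fell from 95.2% and 88.2% to 74.4% and 70.5% (*q* = 0.0067), and the one at 87471404 in a UTR exon of *Hsf5* from 75.9% and 81.6% to 57.6% and 48.1% (*q* = 2.6e-04). The number of body and upstream CpGs called lower moved with the library left out, as did the number over all CpGs. The mean BS level over all CpGs tested was 26.5% and 31.3% in shScr, against 22.0% and 22.3% in shTet3, and this lower level moves with the group beside every value given. Its part in the differences was not tested.

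At the thresholds, the smallest oxBS difference inside was 10.5 percentage points, at the *Apoe* CpG 20283769, and the largest *q* value inside was 0.0099, at the *Acer2* CpG 86576877. Just outside were the CpGs at 147242595 and 147242601 of *Fv1* and *Miip*, both at 9.96 percentage points with a *q* of 0.0037. The *Acer2* CpG at 86576854 was at 19.2 percentage points with a *q* of 0.010.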

How the data were processed

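BS and oxBS libraries of shScr and shTet3 NPCs (100 ng of DNA, MspI digestion) were analysed. Per the labels and the methods, the authors trimmed reads with Trim Galore in RRBS mode, aligned them with Bismark to mm9 and deposited per CpG a coverage, which is an unnormalized count of calls, along with the percent of them that were C and T. Versions are not given in the sources used here. Libraries held 42516767 to 61865967 calls, with a median coverage of 43 to 54. Methylated counts were recovered as percent times coverage. All 757812 positions were CpGs in NCBIM37.

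Genes, exons and promoters came from GENCODE vM1. CpGs reaching a coverage of 10 in every library of the contrast were tested by logistic regression on the shRNA (likelihood ratio test, adjusted over all CpGs by Benjamini-Hochberg) (Python 3.11.15, SciPy 1.17.1). Means over CpGs were compared by two-sided exact permutation tests. Promoters with at least 3 CpGs were fitted with limma 3.58.1 (R 4.3.3) on log2((m + 1)/(101 − m)), where m is the mean percent. The differences given in percentage points are of pooled counts for single CpGs and of library means for sets. BS and oxBS libraries that share a number within an shRNA were taken to come from 1 DNA sample. The difference between replicates 1 and 2 correlated between oxBS and BS at r = 0.517 in shScr and 0.260 in shTet3. The labels do not say what shScr and shTet3 libraries of the same number share, nor whether replicates are separate cultures. The p-values may therefore measure technical spread.

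The 6 genes and the lists of relatives were chosen with earlier results of these data known, and the genes named are those 6. Alternatives were coverage minimums of 5 and 20, other promoter definitions, read-weighted levels, Fisher's exact test, an overdispersion-corrected F test, no limit on the difference, replicates beyond controls, the replicate block and leaving out each library.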

Additional observations from a re-analysis of the deposited data

How the results depend on the processing

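Of the alternatives for the counts of calls and the BS differences at the CpGs called higher in oxBS, 125 values stayed within the spread of the replicates or within 1.5 times the main count, and 30 moved. Both numbers count the identical values of *Fv1* and *Miip* once for each gene. None of these BS differences was called, and their sign was kept in 12 of 14 alternatives at *Fv1* and *Miip*, 9 of 14 at *Acer2*, 11 of 14 at *Apoe*, 13 of 14 at *Galnt9* and 9 of 13 at *Hsf5*. These tallies and the 125 values include alternatives that left the differences as they were. The mean of the replicate pairs equals the main value, and the other promoter definitions kept the same CpGs. The limma fit called 0 promoters of any gene in every setting. A coverage minimum of 5 gave BS differences of −3.73 percentage points at *Acer2*, 1.49 at *Apoe* and 0.357 at *Galnt9*, and a minimum of 20 gave −3.16 at *Acer2*. With CpGs whose shTet3 replicates both exceeded both shScr replicates in oxBS, *Acer2* had 7.86, and *Hsf5* had no such CpG and no value. Over all promoter CpGs the difference was 2.19 at *Fv1* and *Miip* and 0.919 at *Apoe*. The difference between replicates 1 and 2 was nearly uncorrelated between shScr and shTet3 (r = −0.0282 over 659124 CpGs in BS and −0.0361 over 662455 in oxBS). That does not settle whether libraries of the same number share a culture. With the replicate block, pair 1 gave 1.25 at *Fv1* and *Miip* and −4.64 at *Apoe*, and pair 2 gave −4.17 and 0.710. The block changed no call of promoter or body CpGs by over 1.5 times.

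Leaving out 1 library at a time gave −2.90 to −0.0269 percentage points at *Fv1* and *Miip*, −2.18 to 7.57 at *Acer2*, −3.33 to −0.607 at *Apoe*, −5.89 to −0.0527 at *Galnt9* and −8.68 to 11.45 at *Hsf5*. Promoter CpGs called higher in BS then numbered 1 to 7 and those called lower 1 to 4. Body and upstream CpGs numbered 0 to 1 higher and 0 to 10 lower. Without a limit on the difference, 1 promoter CpG was called higher and 4 lower. The overdispersion-corrected F test called 0 promoter CpGs and 0 body CpGs in either direction. It also called 0 of all 659124 CpGs in BS and 0 of 100 simulated CpGs raised by 30 points, so that it says nothing on stability. Depth limits the single CpGs, and 3 of the 19 were under the coverage minimum in BS.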

Other observations

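The shared promoter of *Fv1* and *Miip* held a stretch ordered by replicate number. On the fragment from 147242635 to 147242769, replicate 1 was above replicate 2 in both shRNAs and both library kinds at 8 of 9 CpGs. Over the 612975 CpGs covered in all 8 libraries this order held at 1.70%. The stretch was chosen after its values were seen.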
